A study of Mus musculus with 10 samples.

Results

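The Clec genes are the part of the C-type lectin superfamily whose mouse symbols begin with Clec and a number. They were followed here in CD117+ splenocytes before and after exposure to lipopolysaccharide (LPS). Members were all genes with a symbol of that form that had a probe set (the group of probes that reads 1 transcript cluster) annotated with that symbol alone, except 1 Clec gene that is not reported here. This gave 29 members among 25648 gene symbols on the array, each read by 1 probe set.

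Each genotype and time was read on a single array, 10 in all, so that no condition was replicated. RasGRP4-null splenocytes came from male B6 (C57BL/6) mice, 9 to 12 weeks of age, that carry an inactivated gene for RasGRP4, an exchange factor that activates Ras. WT splenocytes came from male B6 mice of the same age, with 5 mice per genotype. Cells selected for CD117 with antibody and magnetic beads were harvested at 0 h or after 12, 24, 36 or 48 h with LPS at 1 µg/ml. No cells were cultured without LPS, so time in culture and LPS cannot be told apart, and "LPS" below means both. Times follow the titles of the arrays: for 3 of the RasGRP4-null arrays the source name has a time earlier than the title, and the design text of the series gives another set of times. In bulk RNA, fewer cells of a type and less RNA per cell cannot be told apart.

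Most Clec proteins are type II membrane receptors with a single extracellular C-type lectin-like domain, and in the spleen they are best known from macrophages, dendritic cells (DCs), neutrophils and NK cell ligands. Activating members signal through the spleen tyrosine kinase Syk, either by a motif of their own (Dectin-1, CLEC-2) or by the shared adaptor FcRγ, encoded by Fcer1g (Dectin-2, Mincle, MCL). Inhibitory members carry a tyrosine motif that recruits the phosphatases SHP-1 and SHP-2. A further branch encodes ligands that NK cell receptors read on other cells.

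In mice most Clec receptor genes lie in a pair of clusters on chromosome 6. In the RefSeq annotation (GRCm38.p6) 22 of the 29 members are on that chromosome, Clec2l, Clec5a and Clec4f outside the clusters. RefSeq promoter windows of the same build, from 250 bases before to 50 bases after a gene's start, were at hand for 22 members. The windows of 4 members of these clusters are printed, some of them higher and some lower after LPS. Clec4d and Clec4e are neighbours and were higher after LPS. Clec4b1, in their cluster, was lower, as was Clec1b in the other cluster. Capitals mark the motif letters listed after the sequences, and the windows are chr6:123261857-123262156 (+ strand) for Clec4d, chr6:123289822-123290121 (- strand) for Clec4e, chr6:123049712-123050011 (+ strand) for Clec4b1 and chr6:129397047-129397346 (+ strand) for Clec1b.
Clec4d: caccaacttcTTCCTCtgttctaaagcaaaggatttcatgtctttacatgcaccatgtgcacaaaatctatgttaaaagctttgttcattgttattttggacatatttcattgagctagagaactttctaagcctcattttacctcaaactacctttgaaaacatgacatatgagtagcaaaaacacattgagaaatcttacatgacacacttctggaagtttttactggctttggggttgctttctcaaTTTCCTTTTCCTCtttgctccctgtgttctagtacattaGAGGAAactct
Clec4e: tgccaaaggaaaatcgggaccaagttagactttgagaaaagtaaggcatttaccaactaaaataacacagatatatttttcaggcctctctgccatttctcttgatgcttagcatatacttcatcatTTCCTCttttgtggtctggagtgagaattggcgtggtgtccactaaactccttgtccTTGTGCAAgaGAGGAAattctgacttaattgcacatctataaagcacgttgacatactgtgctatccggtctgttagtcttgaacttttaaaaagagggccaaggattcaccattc
Clec4b1: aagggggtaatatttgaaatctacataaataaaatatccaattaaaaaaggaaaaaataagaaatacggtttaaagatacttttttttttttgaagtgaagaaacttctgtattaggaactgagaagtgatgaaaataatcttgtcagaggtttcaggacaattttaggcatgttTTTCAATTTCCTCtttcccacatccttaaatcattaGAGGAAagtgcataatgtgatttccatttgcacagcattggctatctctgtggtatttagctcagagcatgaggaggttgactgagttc
Clec1b: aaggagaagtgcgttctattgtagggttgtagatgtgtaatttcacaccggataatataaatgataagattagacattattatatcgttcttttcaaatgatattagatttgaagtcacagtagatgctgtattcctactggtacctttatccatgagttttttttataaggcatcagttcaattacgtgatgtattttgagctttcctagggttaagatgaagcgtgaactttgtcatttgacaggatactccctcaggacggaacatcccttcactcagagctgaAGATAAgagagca

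Letters of 6 motifs were searched on both strands, chosen after the values of the members were known. GAGGAA is the core of the PU.1 motif. The interferon response element and the NF-kB consensus were searched by their usual letters. Matches of different motifs may overlap, as those of PU.1 and of the interferon response element do in the windows of Clec4d and Clec4b1. GAGGAA occurred in the windows of 15 of the 22 members, 5 of 7 that were lower after LPS and 3 of 5 that were higher, and in 28.3% of all 32851 windows. The interferon response element occurred in Clec4b1, Clec4d and Clec2d, against 3.44% of all windows. The C/EBP letters TTGCNNAA occurred in 5 members (10.8% of all windows). The AP-1 letters TGANTCA occurred in 5 members as well (7.81%). The GATA letters AGATAA occurred in Clec1b alone (11.2%), and the NF-kB consensus in Clec2l alone (4.51%). Clec4a3, Clec2i and Clec7a have 2 windows each, so that a member had more than 1 chance to match. Matching letters are a description of the windows and not of binding.

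Intensities below are PLIER values, the summary that the Affymetrix software gives for a probe set, without further scaling unless stated. They are not compared between genes as levels, since probes differ in affinity. The background of an array was the 95th percentile of its 1089 probe sets for olfactory receptor genes, which lay at 29.1 to 38.5. Array medians were 24.6 to 28.6. Kit, which encodes CD117, was above background on all 10 arrays (133.4 to 333.9). Rasgrp4, the deleted gene, was at 16.7 to 25.5 in RasGRP4-null cells, and in WT cells at 20.6 to 25.4 after LPS and 86.4 before it, so that it told the genotypes apart at 0 h alone.

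After LPS, 7 members were above background on all 8 arrays, against 13 in untreated RasGRP4-null cells and 12 in untreated WT cells (12 in both). Of the 7, 5 (Clec16a, Clec2d, Clec2i, Clec4n and Clec7a) were above background on every one of the 10 arrays, and the others were Clec4d and Clec4e. At the other end, 14 members were above background on no array, with values of 3.0 to 32.1. With the 99th percentile of the olfactory receptor probe sets in place of the 95th, 3 members stood above background on all LPS arrays and 11 on both untreated arrays.

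LPS was followed by opposite movements within the family. In a limma fit to all 25648 symbols with no filter on low values, 10 of the 29 members were lower and 6 were higher as a mean of the 4 LPS times against 0 h. Over all symbols 15.3% were lower and 25.1% were higher. A fit restricted to genes that reached a PLIER value of 50 on 2 arrays covered 14 members, of which 9 were lower (21.5% of 11178 genes) and 5 higher (48.2%). Of those 14, 7 would not have passed on their LPS arrays alone and 2 reached 50 on no untreated array, so that these had to differ, and nothing is read from the counts of the filtered fit. Any p for the LPS mean of these 9 is from the fit without a filter. At 12 h alone 5 were higher (41.9% of all genes) and 8 lower (19.9%), and at 48 h 5 were higher (43.7%) and 9 lower (17.7%). Without a test, all LPS arrays lay above both untreated arrays for 7 of the 29 members (23.3% of all symbols) and below them for 13 (16.4%). Other values for single members come from the filtered fit unless stated, on the scale log2(PLIER + 16), with p adjusted over all 11178 genes. In it 2 arrays per time, 1 of each genotype, serve as replicates of a shared time course, so a p-value describes these samples and not a population of mice. The labels do not say whether an array holds RNA pooled from the 5 mice or whether the times of a genotype share a cell preparation, so the spread behind a p-value may be technical.

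**Figure D1:**
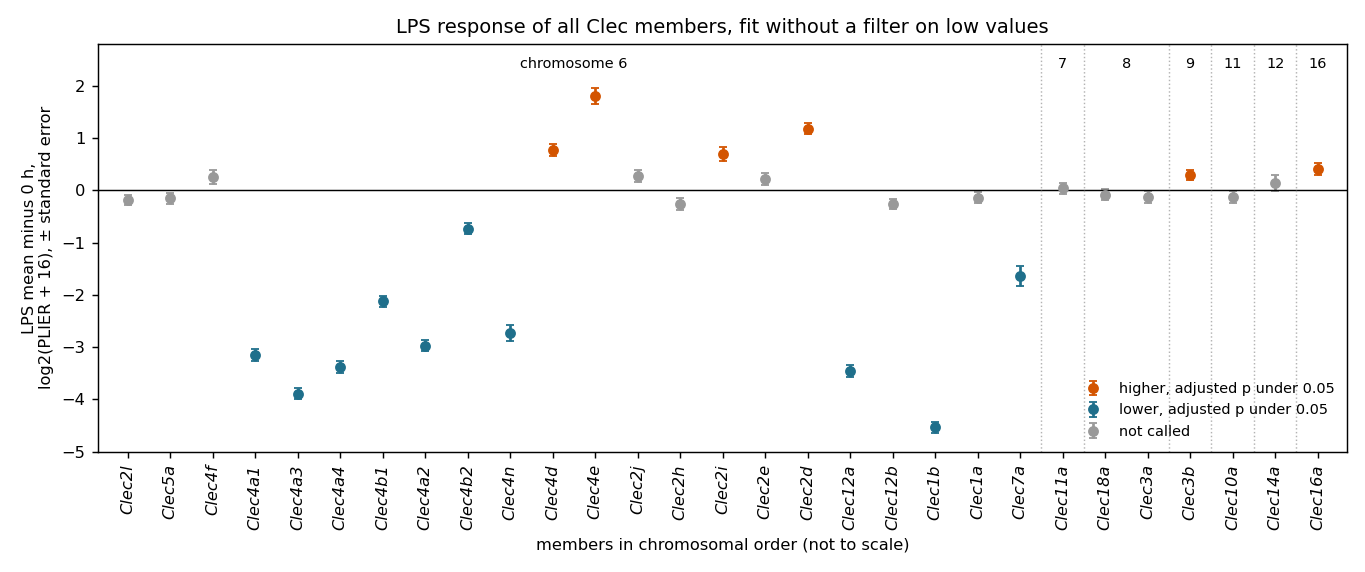
Change after LPS of the 29 members in their order along the chromosomes (x axis, not to scale), as the mean of 12 to 48 h minus 0 h on the scale log2(PLIER + 16) from limma without a filter (y axis; points are estimates and bars standard errors). Clec4a1 to Clec4n, 7 neighbouring members, lie below 0, and the next pair, Clec4d and Clec4e, lies above it.

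The 4 Clec4a members, which encode the DCIR group, were all lower after LPS. Clec4a2 and Clec4a4 encode receptors with an inhibitory motif, DCIR1 and DCIR2, of which DCIR2 marks a subset of splenic DCs. Clec4a2 had values of 172.7, 4.87, 6.80, 6.74 and 5.82 in RasGRP4-null cells and 142.6, 7.06, 6.39, 6.01 and 4.83 in WT cells (here and below at 0, 12, 24, 36 and 48 h). Clec4a4 had values of 258.0, 10.8, 7.77, 6.55 and 7.40 in RasGRP4-null cells and 216.1, 7.36, 7.07, 8.28 and 11.6 in WT cells. Both transcripts were above background on the untreated arrays alone, and every LPS array lay below both untreated arrays. Since the LPS values lie below background, the falls are bounds: Clec4a2 was at least 5.18-fold lower and Clec4a4 at least 7.79-fold lower after LPS.

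Clec4a1 and Clec4a3 encode the related receptors DCIR4 and DCIR3. Clec4a1 had values of 314.0, 27.1, 19.6, 22.1 and 20.8 in RasGRP4-null cells and 281.5, 14.1, 12.6, 16.4 and 23.6 in WT cells. Clec4a3 had values of 656.4, 25.0, 25.7, 30.0 and 25.5 in RasGRP4-null cells and 583.9, 27.9, 21.3, 29.1 and 31.4 in WT cells. For both genes every LPS array lay far below both untreated arrays. Clec4a1 was at least 9.81-fold lower. Clec4a3 was above background on 2 LPS arrays, RasGRP4-null at 36 h and WT at 48 h, and was called lower (adjusted p = 2.80e-10 from limma without a filter).

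Clec12a encodes an inhibitory receptor of myeloid cells that recognises dead cells. Its values were 461.0, 50.1, 23.6, 32.8 and 24.9 in RasGRP4-null cells and 425.3, 27.3, 18.6, 23.2 and 14.3 in WT cells. It changed by -3.46 after LPS (standard error 0.111, adjusted p = 1.19e-09 from limma without a filter), against LPS values of which 6 lay below background. RasGRP4-null cells kept it above background at 12 and 36 h, and WT cells at no LPS time. It went on falling between 12 and 48 h, by 0.60 in log2 units (standard error 0.148, adjusted p = 0.0138 from limma), but that call was lost when the array of RasGRP4-null 12 h, RasGRP4-null 48 h or WT 48 h was left out. The values without each of the 10 arrays in turn ranged from -0.78 to -0.43, and with values below 40 set to 40 the difference was -0.16.

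Clec1b, which encodes CLEC-2, the podoplanin receptor of platelets that mouse myeloid cells also carry, was below background on every LPS array. Its values were 911.7, 21.9, 17.2, 21.2 and 20.8 in RasGRP4-null cells and 703.7, 21.6, 17.8, 15.2 and 19.0 in WT cells. It was at least 26.4-fold lower after LPS (adjusted p = 1.21e-10 from limma without a filter). Of 10 genes of platelets and megakaryocytes 3 were bright enough to test, of which Itgb3 was higher after LPS (0.78, standard error 0.110, adjusted p = 8.07e-05 from limma) and Gp9 and Ppbp were not called. The summed PLIER value of the 10 was 260 to 542 on the LPS arrays and 290 to 300 on the untreated arrays, and Gp1ba, Gp5, Gp6 and Treml1 were above background on no array.

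Clec4b1 and Clec4n encode activating receptors that pair with FcRγ. Clec4b1, which encodes DCAR, had values of 90.3, 4.92, 5.52, 6.42 and 4.70 in RasGRP4-null cells and 58.4, 2.4, 4.13, 3.50 and 3.88 in WT cells. It was above background at no LPS time and on both untreated arrays, and was at least 2.39-fold lower. Clec4n encodes Dectin-2, a receptor for fungal mannans, and had values of 330.1, 80.0, 34.4, 32.6 and 43.5 in RasGRP4-null cells and 461.0, 60.1, 53.8, 32.1 and 40.6 in WT cells. Clec4n was above background on all 10 arrays and changed by -2.73 (standard error 0.153, adjusted p = 6.75e-08 from limma). Its neighbour Clec4b2 was below background throughout, at 6.65 to 13.3 after LPS and at 26.5 and 30.6 on the untreated RasGRP4-null and WT arrays. In the fit without a filter Clec4b2 changed by -0.73 (standard error 0.107, adjusted p = 2.11e-04 from limma).

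Clec7a, which encodes the β-glucan receptor Dectin-1, fell later than the others. Its values were 250.2, 234.6, 50.2, 45.6 and 44.1 in RasGRP4-null cells and 314.4, 140.8, 86.5, 68.3 and 65.8 in WT cells. At 12 h it was at 0.94 times the untreated value in RasGRP4-null cells and 0.45 times in WT cells, and at 48 h at 0.18 and 0.21 times. The change at 12 h did not pass limma's test (-0.58, standard error 0.253, adjusted p = 0.0658), whereas the mean of the LPS times did (-1.64, standard error 0.200, adjusted p = 2.72e-05). Between 12 and 48 h it fell by 1.50 in log2 units (standard error 0.253, adjusted p = 0.00197 from limma). That call held without any 1 of the 10 arrays, with values from -2.07 to -0.93, the smallest change being that without the RasGRP4-null array of 12 h. In all, Clec7a and Clec12a were the 2 members called lower at 48 h than at 12 h, where 9.71% of all genes were.

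**Figure D2:**
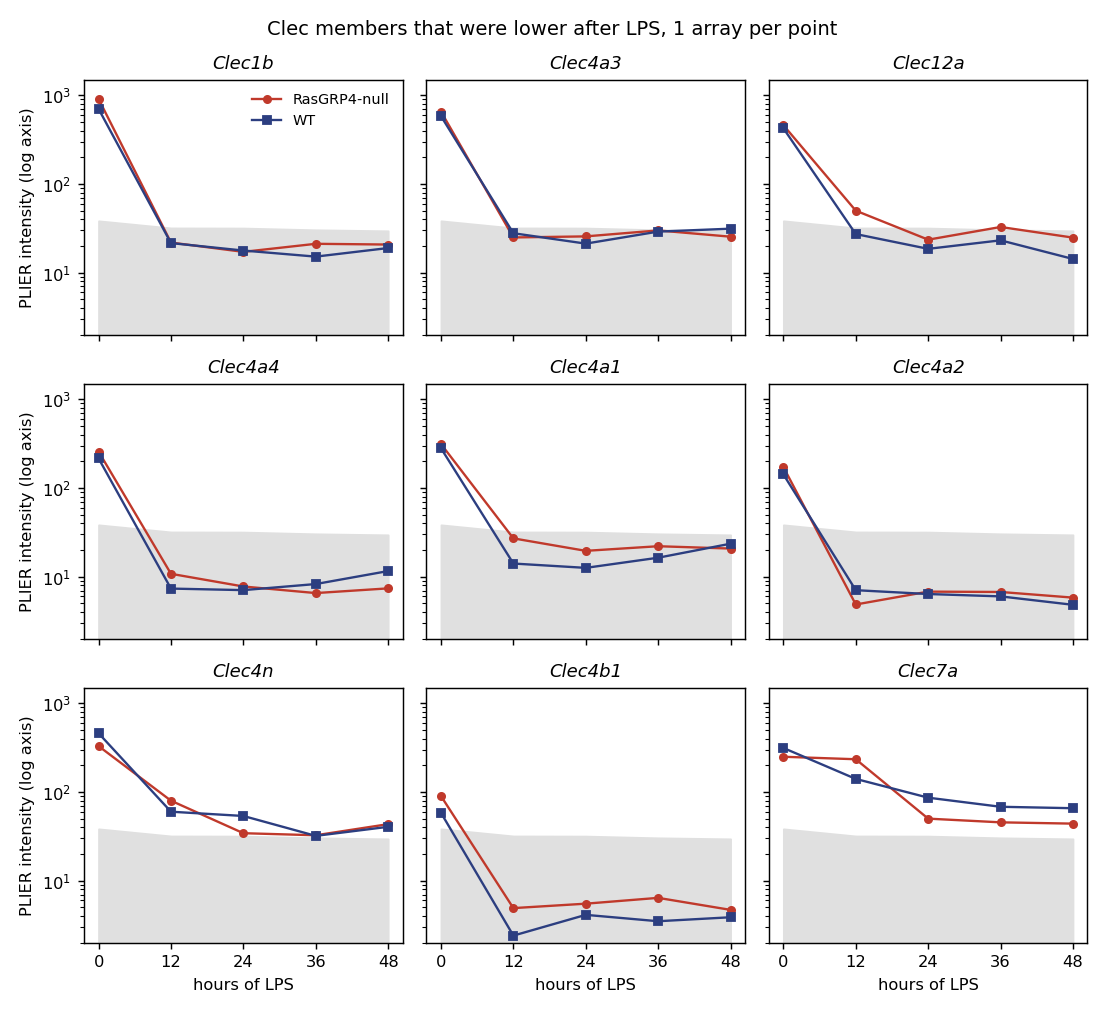
PLIER intensity (log axis) of the 9 members called lower after LPS, against hours of LPS, with RasGRP4-null in red circles and WT in blue squares, 1 array per point. The shaded area is at or below background (the higher of the 2 genotypes at each time). Clec7a alone is still at 234.6 (RasGRP4-null) and 140.8 (WT) at 12 h, when 6 others lie below background, Clec12a is at 50.1 and 27.3, and Clec4n at 80.0 and 60.1.

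The members that were higher after LPS include the pair of FcRγ-coupled receptors next to Clec4n. Clec4e encodes Mincle, a receptor for mycobacterial glycolipid and for SAP130 from dead cells. Its values were 15.0, 73.4, 78.0, 82.1 and 86.0 in RasGRP4-null cells and 18.9, 168.3, 91.3, 119.2 and 121.2 in WT cells. It was above background on all 8 LPS arrays and below it on both untreated arrays, at least 2.85-fold higher, with a fitted log2 difference of 1.81 (standard error 0.149, adjusted p = 2.31e-06 from limma without a filter). Clec4d encodes MCL, the partner of Mincle, and had values of 15.5, 46.5, 42.3, 36.8 and 42.1 in RasGRP4-null cells and 31.5, 85.6, 53.0, 50.6 and 52.6 in WT cells. It was at least 1.43-fold higher, with a fitted log2 difference of 0.77 (standard error 0.114, adjusted p = 2.24e-04 from limma without a filter). In WT cells both transcripts were highest at 12 h, and in RasGRP4-null cells Clec4d was highest at 12 h and Clec4e at 48 h.

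The Clec2 genes of the second cluster encode ligands of NK cell receptors. Clec2d encodes Clr-b, which holds NK cells in check through an inhibitory NKR-P1 receptor, and had values of 351.5, 1015.2, 835.8, 870.8 and 945.1 in RasGRP4-null cells and 414.3, 904.5, 768.2, 906.4 and 874.5 in WT cells. All LPS arrays lay above both untreated ones, and the change was 1.18 (standard error 0.111, adjusted p = 3.46e-06 from limma). Clec2i encodes Clr-g, a ligand of the receptor encoded by Klrb1f, and had values of 106.2, 143.9, 187.8, 164.7 and 198.4 in RasGRP4-null cells and 113.6, 170.4, 156.3, 226.9 and 286.4 in WT cells. It changed by 0.70 (standard error 0.138, adjusted p = 9.44e-04 from limma), and was the 1 member called higher at 48 h than at 12 h (0.56, standard error 0.175, adjusted p = 0.0410 from limma), where 12.8% of all genes were. That late rise was lost without either array of 12 h or of 48 h, with values of 0.37 to 0.75 over the 10 arrays left out, and in the fit without a filter (adjusted p = 0.0692, where 4.94% of all symbols were higher). In that fit 3 members were higher at 12 h than at 0 h (20.4% of all symbols). The other Clec2 members (Clec2e, Clec2h, Clec2j and Clec2l) were above background on no array.

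Clec16a, which despite its name encodes no lectin receptor but a protein of endosomes and autophagy, had values of 108.3, 161.9, 174.0, 167.7 and 171.5 in RasGRP4-null cells and 134.4, 159.7, 141.6, 165.3 and 183.3 in WT cells. All LPS arrays lay above both untreated ones, by 0.41 in the fit (standard error 0.117, adjusted p = 0.00904 from limma). The call was lost without the untreated RasGRP4-null array (0.24, adjusted p = 0.202). Clec18a, which encodes a secreted protein, stayed near background, with values of 36.3, 34.1, 29.8, 27.8 and 27.5 in RasGRP4-null cells and 30.9, 28.0, 35.2, 30.6 and 36.0 in WT cells. It was above background on 5 arrays and was not bright enough for the filtered fit. Clec3b, which encodes tetranectin, was below background throughout (11.0 to 23.8), and changed by 0.29 in the fit without a filter (standard error 0.0983, adjusted p = 0.0374 from limma).

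Scaling the arrays to Gapdh changed the calls of 4 of the 5 rises and the size of the falls. The authors also deposited intensities multiplied by 1 factor per array that levels Gapdh, whose own PLIER value was 3502 to 4509 after LPS and 1899 and 2081 in untreated RasGRP4-null and WT cells. On PLIER values the median gene changed by 0.26 after LPS, and on GAPDH-normalized values by -0.70. On that scale 8.54% of all genes were higher and 69.2% lower, and 1 member was higher and 10 were lower. At 12 h on that scale 1 member was higher (8.40% of all genes) and 11 lower (61.3%), and at 48 h 1 was higher (8.16%) and 10 lower (60.7%). At 48 h against 12 h, 0 were higher (8.67%) and 2 lower (6.36%). Clec4e stayed higher (1.19, standard error 0.146, adjusted p = 3.15e-06 from limma) and the 9 members stayed lower, with larger values (-4.55 for Clec12a, -3.80 for Clec4n and -2.69 for Clec7a). Clec2d (0.14, adjusted p = 0.405 from limma) and Clec4d (0.07, adjusted p = 0.673) were no longer called, and Clec2i (-0.28, adjusted p = 0.123) and Clec16a (-0.58, adjusted p = 0.00235) turned round. Relative to the median gene, the 2 scales gave 0.92 and 0.85 for Clec2d and 0.51 and 0.77 for Clec4d (PLIER first). They gave 0.43 and 0.43 for Clec2i and 0.15 and 0.13 for Clec16a. After quantile normalization of the PLIER values, Clec4e (1.79), Clec2d (0.98), Clec4d (0.78) and Clec2i (0.53) stayed called higher. Clec16a (0.22, adjusted p = 0.0965 from limma) did not.

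**Figure D3:**
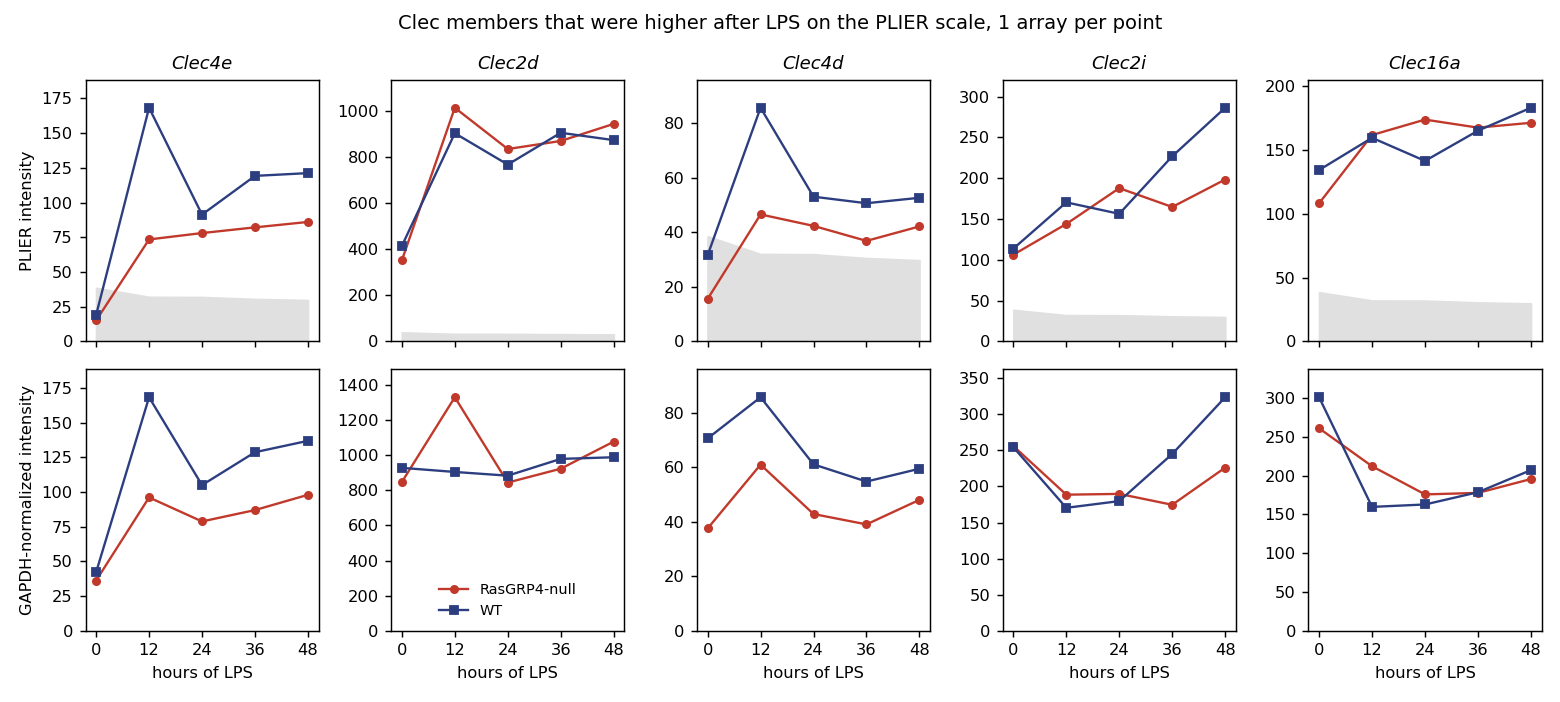
Intensity of the 5 members called higher after LPS on the PLIER scale, against hours of LPS, with PLIER values in the upper panels (shaded area at or below background) and GAPDH-normalized values in the lower panels, RasGRP4-null in red circles and WT in blue squares, 1 array per point. Clec4e is above its untreated values on both scales, whereas Clec16a lies above them on the PLIER scale and below them on the GAPDH-normalized scale.

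The methods asked that a transcript exceed 1% of Gapdh in the LPS sample and lie over 3.6-fold from the untreated cells. With those criteria Clec7a alone of the 29 members was lower at 24 h in both genotypes (2.27% of all symbols) and 0 were higher (0.296%). With the 1% asked of the brighter array instead, 10 members were lower at 24 h (5.38% of all symbols).

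No member passed limma's test for RasGRP4-null minus WT over the 5 times, where 0.152% of all genes were higher and 0.0268% lower. At an unadjusted p under 0.05 stood 5 members and 9.40% of all genes. The estimates of Clec4d (-0.42, standard error 0.0957, adjusted p = 0.132 from limma) and Clec4e (-0.46, standard error 0.123, adjusted p = 0.206) were negative, with RasGRP4-null below WT at 5 of 5 times, which held for 3.71% of all genes. The Clec4e values of 12 h were 73.4 in RasGRP4-null and 168.3 in WT cells, the widest gap of that gene. Those of Clec12a (0.33, standard error 0.0935, adjusted p = 0.240) and Clec4b1 (0.21, standard error 0.0909, adjusted p = 0.496) were positive, with RasGRP4-null above WT at 5 of 5 times (5.58% of all genes), and that of Clec4a1 was 0.22 (standard error 0.0983, adjusted p = 0.511). At the LPS times Clec4b1 and Clec4a1 were below background in both genotypes and Clec12a was in WT cells. Clec4d and Clec4e were below background in both genotypes at 0 h. Transcripts of neutrophils, cells in which Clec4d and Clec4e are known, were lower in RasGRP4-null cells before LPS. Their summed PLIER values over 12 genes were 5719, 587, 304, 216 and 203 in RasGRP4-null cells and 9105, 876, 321, 214 and 232 in WT cells. None of the 9 tested passed the test between genotypes, and Ly6g and Mmp8 were above background on no array. Their part in the Clec4d and Clec4e values was not tested.

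**Figure D4:**
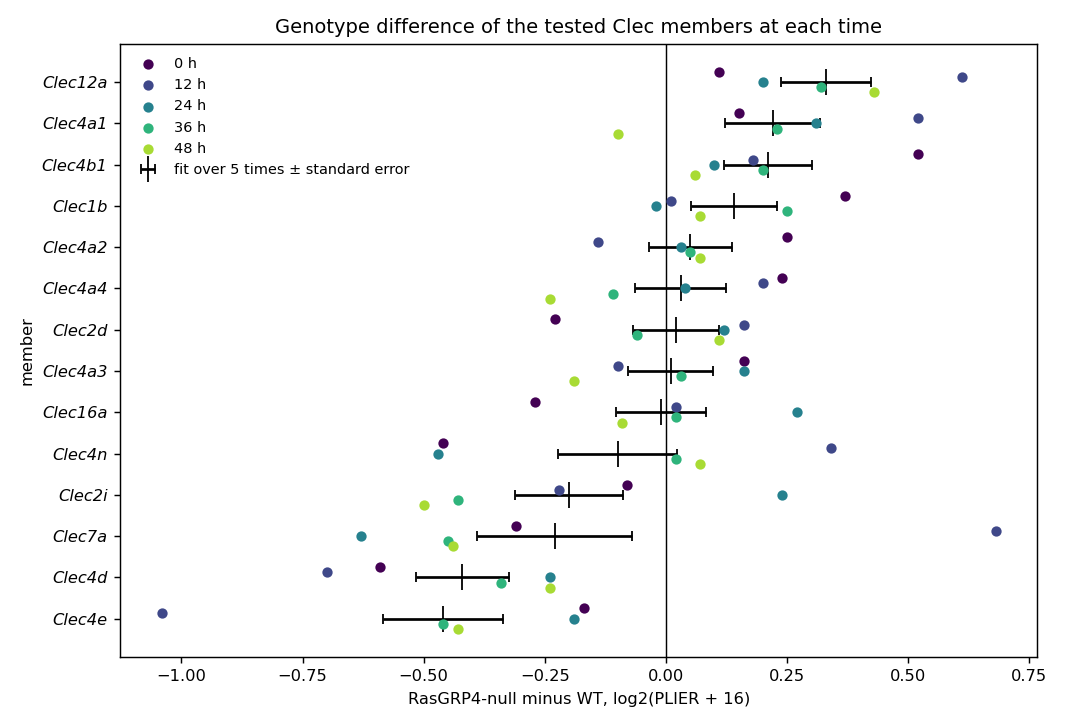
RasGRP4-null minus WT on the scale log2(PLIER + 16) for the 14 tested members (rows), with 1 coloured point per time and the limma estimate over the 5 times with its standard error in black. All 5 points of Clec4d and Clec4e lie below 0 and all 5 of Clec12a and Clec4b1 above it. Those of Clec4b1 at the LPS times, and of Clec4d and Clec4e at 0 h, are between values below background. No member passed the test.

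No difference between the genotypes in the response to LPS was called by limma's interaction term for any of the 14 members. None had an unadjusted p under 0.05 either, which 839 of all 11178 genes had. Over all genes 0.134% were higher and 0.0537% lower by this term. The estimate was -0.36 for Clec4e (standard error 0.294, adjusted p = 0.882) and 0.45 for Clec4n (standard error 0.282, adjusted p = 0.805). For Clec7a, which RasGRP4-null cells held at 234.6 and WT cells at 140.8 after 12 h, it was 0.10 (standard error 0.410, adjusted p = 0.994). The term averages over the 4 LPS times, and a difference at 12 h alone, with 1 array for each genotype, could not be tested.

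Among 35 other lectins outside the Clec symbols, 16 were bright enough to test, and 10 were lower and 3 higher after LPS (21.5% and 48.2% of all genes; median -0.47, against 0.26 over all genes). Mrc1, the macrophage mannose receptor, had values of 8.37 to 16.8 after LPS and of 1543.6 and 1463.7 in untreated RasGRP4-null and WT cells. It changed by -5.73 (standard error 0.117), and Fcer2a, the low-affinity IgE receptor CD23 of B cells (also among the B cell markers below), by -4.31 (standard error 0.147). Mrc1, Fcer2a and Cd302 would not have passed the filter on their LPS arrays alone, and Klrg1 reached 50 on no untreated array. These had to differ, so nothing is read from the counts of this list after LPS against 0 h. Prg2, eosinophil major basic protein, changed by -1.62, and was the 1 lectin of this list called between genotypes (RasGRP4-null minus WT 0.55, standard error 0.0853, adjusted p = 0.0478 from limma). Klrd1, the CD94 chain of NK receptors, changed by -1.20. Those higher were Ly75, which encodes the DC endocytic receptor DEC-205 (2.35, standard error 0.212), Klrg1 (0.78) and Cd72 (0.69). On the GAPDH-normalized scale Ly75 alone stayed higher.

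The signalling genes downstream of the activating members included some that were higher and some that were lower after LPS. Of 37 tested, 9 were higher and 14 lower (48.2% and 21.5% of all genes), with a median of -0.02. Of the 37, 34 were above background on each untreated array, so genes could pass the filter on their LPS arrays alone. Nothing is therefore read from the counts of this list. On the GAPDH-normalized scale 3 were higher and 31 lower, where 8.54% and 69.2% of all genes were. The adaptors fell: Fcer1g, which encodes FcRγ, had values of 439.9 to 663.4 after LPS and of 2039.6 and 1809.3 in untreated RasGRP4-null and WT cells (-1.73, standard error 0.112, adjusted p = 2.25e-07 from limma). Tyrobp, which encodes the adaptor DAP12, changed by -2.79 (standard error 0.112). Nlrp3, the inflammasome sensor, changed by -2.44. Syk, the kinase they share, was at 470.5 to 743.4 over the 10 arrays and did not pass the test (-0.23, standard error 0.100, adjusted p = 0.0643). The cytokine genes Il6 (4.44, standard error 0.286) and Il10 (3.47, standard error 0.175) were higher, and both are also induced by LPS through its own receptor. No gene of the list was called between genotypes.

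Of 8 genes listed as ligands or partners of members, 4 were bright enough to test. Sap130, the Mincle ligand, was higher (0.65, standard error 0.118, adjusted p = 5.04e-04) and turned round on the GAPDH-normalized scale (-0.38). Anxa1, which encodes the Dectin-1 ligand annexin A1, was lower (-2.12, standard error 0.158). Klrb1f, the receptor for Clr-g, was lower as a mean of the LPS times (-0.41, standard error 0.128, adjusted p = 0.0140), and higher at 48 h than at 12 h (1.43, standard error 0.162, adjusted p = 2.74e-04). Klrg1, the other gene called, was listed here but is not taken as a ligand or partner of a member. Pdpn, the CLEC-2 ligand podoplanin, was not bright enough to test.

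Summed PLIER values of several marker lists were lower after LPS, and not only those of cells known for these receptors. Other lists did not fall. Mast cell genes summed to 435 to 1196 on the LPS arrays and 563 to 729 on the untreated arrays. For NK cell genes the sums were 749 to 1510 and 1150 to 1384, and for basophil genes 70 to 121 and 96. Over all genes 21.5% were lower and 48.2% higher. Of 6 tested T cell genes 5 were lower, with summed PLIER values of 388 to 825 on the LPS arrays and 1061 to 1211 on the untreated arrays. Of 5 tested genes of red cell precursors 3 were lower and 1 higher (318 to 1078 and 1386 to 1572). Of 6 genes of conventional DCs as a whole 3 were lower and 2 higher (2552 to 4144 and 3188 to 3196). Of 15 genes of macrophages and monocytes 14 were lower and Ly6c2 was higher after LPS, and their summed PLIER value was 1741 to 3264 on the LPS arrays and 23962 to 25013 on the untreated arrays. Csf1r, which encodes the CSF-1 receptor that macrophages need, was above background on no LPS array and on both untreated arrays. All 9 tested genes of neutrophils were lower, with summed values of 203 to 876 on the LPS arrays and 5719 to 9105 on the untreated ones. Genes could pass the filter on their untreated arrays alone, so nothing is read from the counts of these lists. Of 7 genes of XCR1-type conventional DCs 6 were lower (summed 1289 to 1787 on LPS arrays, 3890 to 4124 on untreated arrays), and of 6 genes of SIRPA-type conventional DCs 3 were lower and 2 higher (1656 to 2694 and 3121 to 3142). Of 6 tested genes of plasmacytoid DCs 4 were higher and 1 lower (3872 to 5041 and 2466 to 2613). On the GAPDH-normalized scale 2 were higher and 3 lower, where 8.54% and 69.2% of all genes were. Siglech, a defining marker of these cells, was too dim to test, at 19.5 to 31.9 after LPS and at 41.6 and 69.1 in untreated RasGRP4-null and WT cells. Of 7 B cell genes 2 were higher and 2 lower. Clec4e, Clec4d and Clec2d were higher after LPS on PLIER values. Of these, Clec4e alone stayed called on the GAPDH-normalized scale. The part of the listed cell types in the values of the Clec members was not tested.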

How the data were processed

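RNA of CD117+ splenocytes from male RasGRP4-null and WT B6 mice (5 per genotype) was hybridized to 10 Affymetrix MoGene-2.0-st arrays. Per the labels and methods, the authors computed intensity values with PLIER in Affymetrix Expression Console (the genome build is not given in the sources used here). They deposited these, the same intensities multiplied by 1 factor per array that levels GAPDH, and a value table that equals the second set after rounding (largest difference 0.5). The 10 columns that repeat PLIER values were not used. Of 41345 probe sets, 26660 carry 1 symbol, 3066 several and 11619 none; 1 probe set per symbol was kept, the brightest.

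limma 3.58.1 (R 4.3.3) was fitted to log2(PLIER + 16) with additive terms for time and genotype, leaving 4 residual degrees of freedom. A second fit added their interaction and left 3. Tests were two-sided, with Benjamini-Hochberg adjustment over all genes tested and a threshold of 0.05. Genes needed a PLIER value of 50 on 2 arrays unless stated. The fit was tested on simulated data. A fold given as "at least" sets the mean log2 value of the brighter condition against that of the dimmer one, taking on each dim array the higher of its background and the value measured. For arrays no read depth exists, and their number limits the precision. Gene order and promoter windows are those of RefSeq (GRCm38.p6). Results were recomputed on the 2 scaled tables, after quantile normalization, with a pseudocount of 1 or 64, with the filter dropped or raised to 100, over every single-symbol probe set, with limma's intensity trend, with a background at the 99th percentile, and leaving out each array in turn.

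Members and gene lists were chosen with earlier results of these data known. Members above background on at least 4 arrays, or called in any comparison, are given on every array; from other lists up to 4 genes with the smallest p are named, with exceptions; Fcer1g, Syk and Csf1r were named after their values were seen. Other steps used Python 3.11.15 with numpy 2.4.6 and pandas 2.3.3, and figures matplotlib 3.10.9.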

Additional observations from a re-analysis of the deposited data

Results flagged for a closer look

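A probe set annotated with both Clec1b and a neighbouring gene lay outside the comparisons, because it cannot be assigned to 1 gene. It was above background on both untreated arrays, at 556.8 in RasGRP4-null cells and 608.2 in WT cells, and on no LPS array (8.8 to 15.0). Clec14a, which encodes an endothelial lectin, and Clec11a, which encodes a secreted growth factor, moved in opposite directions in the genotypes, with every LPS array of RasGRP4-null cells on one side of its untreated array and every LPS array of WT cells on the other. The LPS response of Clec14a was 0.50 in RasGRP4-null cells and -0.23 in WT cells, a difference of 0.72 on the scale log2(PLIER + 16). That of Clec11a was -0.12 in RasGRP4-null cells and 0.19 in WT cells, a difference of -0.32. Both genes were below background on all 10 arrays. In limma's interaction term without a filter neither difference was called (Clec14a standard error 0.205, adjusted p = 0.204, and Clec11a standard error 0.180, adjusted p = 0.540).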

How the results depend on the processing

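On GAPDH-normalized values and in the value table, the count of members called higher was 1 in place of 5 for the mean of the LPS times (4 to 5 when each array was left out), for 12 h and for 48 h against 0 h (4 to 5), and 0 in place of 1 for 48 h against 12 h. The direction turned for Clec16a (mean of the LPS times -0.58 and -0.57, 12 h -0.57 and -0.56, 48 h -0.45 in both) and for Clec2i (mean -0.28, 12 h -0.47). By the methods' rule 0 members were higher and 1 lower at 24 h, in place of 5 and 9. With 1% of Gapdh asked of the brighter array (chosen after seeing the data), 0 were higher and 10 lower. At 12 h, 3 members were higher after quantile normalization or without a filter, and 3 to 5 when each array was left out. For 48 h against 12 h, 0 were higher with a pseudocount of 1, without a filter or with values below 40 set to 40 (chosen after seeing the data), and 0 to 1 when each array was left out. For the same comparison, 1 was lower with a pseudocount of 64, and 1 to 3 when each array was left out. Members above background on all 8 LPS arrays numbered 3 at the 99th percentile in place of 7. The cause of these changes was not tested.

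The mean LPS fall of Clec4n and Clec7a, whose LPS arrays alone passed the filter, stayed called in every refit. No refit called a member between genotypes or in the interaction. The interaction could not be fitted without either untreated array. At 12 h, Clec16a lost its call without 7 of the 10 arrays in turn (0.21 to 0.39) and Clec2i without 4 (0.39 to 0.53). The call of Clec16a at 48 h was lost when RasGRP4-null 0 h (0.34) or WT 48 h (0.45) was left out. That of Clec4d for the mean was lost with values below 40 set to 40 (0.33). No paired analysis was possible because the labels give no replicate numbers; time already is a term of each fit. With 1 array per condition, and many members at or below background, differences between genotypes at a single time cannot be told from array error.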

Other observations

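Lectins of NK cells and lymphocytes outside the Clec family went on changing after 12 h. Of 16 tested lectins without a Clec symbol, 6 were higher at 48 h than at 12 h and 1 was lower, against 12.8% and 9.71% of all genes. Klrd1, the CD94 chain of NK receptors, had values of 298.0, 70.5, 108.2, 149.2 and 184.2 in RasGRP4-null cells and 324.3, 81.1, 121.0, 152.9 and 191.3 in WT cells at 0, 12, 24, 36 and 48 h. In both genotypes it was lowest at 12 h, and 48 h was higher than 12 h (adjusted p = 1.99e-04 from limma). Klrg1, an inhibitory receptor of NK and T cells, had values of 33.0, 29.0, 40.3, 65.6 and 76.6 in RasGRP4-null cells and 21.2, 52.5, 55.1, 67.8 and 89.2 in WT cells. It was higher at 48 h than at 12 h by 0.83 (standard error 0.201, adjusted p = 0.0128 from limma). Klrb1f, Cd69, Cd72 and Cd93 were the others that were higher. Markers of NK cells, which include Klrk1 and Klrb1c of the lectin list, dipped at 12 h in RasGRP4-null cells but barely in WT cells. Their PLIER values summed over 7 genes were 1384, 749, 1152, 1311 and 1510 in RasGRP4-null cells and 1150, 1114, 1216, 1243 and 1380 in WT cells. Of 5 tested, Gzma (1.45) and Prf1 (0.96) were higher at 48 h than at 12 h. Their part in the values of the lectins was not tested.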
